A study of Homo sapiens with 6 samples.

Results

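The homeobox genes described here are 77 of the 38986 gene symbols that were counted. A rule on names picked them, as every symbol made of Hoxa-, Hoxb-, Hoxc-, Hoxd-, Lhx-, Six-, Pax-, Dlx-, Msx-, Meis- or Pbx- and a number, with Pax3 left out. The members were chosen with earlier results of these data known, so comparisons with all genes are not independent of those results. Another 7 symbols that begin in the same way and run on, such as antisense transcripts and the readthrough transcript Hoxa10-hoxa9, were not counted as members and are given where they touch one. RNA was sequenced from 3 libraries labelled as mCherry-positive 293T cells that overexpress wild-type STAT6 and from 3 labelled as mCherry-positive Mock 293T cells of wild-type genotype. 293T is a human embryonic kidney line, and STAT6 carries the signal of interleukin 4 and interleukin 13 receptors to the nucleus. The series asks how STAT6 acts on mitochondrial gene expression; its labels name no question about homeobox genes.

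Homeobox genes encode transcription factors that bind DNA through a homeodomain and set the identity of cells and body regions during development. The Hox genes stand in clusters A to D, and in a vertebrate embryo genes nearer the 3′ end of a cluster, with low paralog numbers, are used further towards the head. Meis and Pbx proteins are TALE homeodomain factors that bind DNA together with Hox proteins. Dlx-, Msx-, Six-, Lhx- and Pax-family factors pattern the forebrain, jaws, sense organs, kidney and neural crest, and some Pax proteins carry a paired domain with little or no homeodomain. Pigment cells arise from the neural crest.

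The files and the labels differ, and this bears on every direction below. The symbols are mouse symbols although the labels name a human line. Stat6 stood at 35.1, 33.7 and 32.1 CPM in the libraries labelled STAT6 and at 95.2, 95.5 and 92.8 CPM in the libraries labelled Mock, where CPM is the count scaled to a TMM-adjusted total of 1e6. Stat6 thus ran against the label of overexpression (log2 fold change -1.49, SE 0.04, adjusted p = 7.47e-26, from the test described below). The 7 pigment cell markers, among them Tyrp1 and Dct, summed to 16700 to 16800 CPM in the libraries labelled STAT6 and to 14400 to 14800 CPM in those labelled Mock. Of 5 markers of differentiated kidney epithelium none had enough counts to be tested, and Umod had 0 counts in all 6 libraries. Pax2 and Pax8, members that mark the kidney lineage, had 1 count and 0 counts over all 6 libraries. Within the pigment cell list Tyr was lower (log2 fold change -3.38). The neuronal markers summed to 229 to 238 CPM in the libraries labelled STAT6 and to 59.3 to 61.7 CPM in those labelled Mock, nearly all of it Tubb3 (1.96). The fibroblast markers summed to 81.9 to 88.0 CPM in the libraries labelled STAT6 and to 35.1 to 35.9 CPM in those labelled Mock; of them Col1a1 was higher (4.02), Col1a2 (-2.64) and Pdgfrb (-2.20) were lower, and Dcn, Lum and Thy1 had 1 count each. Sums were low for the leukocyte list (2.11 to 2.32 CPM against 0.517 to 0.818 CPM in the libraries labelled Mock), the epithelial list (2.11 to 2.55 CPM against 0.517 to 0.738 CPM) and the endothelial list (0.588 to 1.03 CPM against 0 to 0.262 CPM). Cd68 (1.86) and Cdh1 (1.92) were higher, while Adgre1, Cd3e, Epcam, Cdh5, Pou5f1 and Sox2 had 0 counts everywhere. The part of these marker differences in the results below was not tested. "Higher" and "lower" below follow the labels and always describe the libraries labelled STAT6 relative to those labelled Mock. Library totals ran from 19894773 to 29802693 counts. Nothing in the labels says that each library is its own culture; the spread behind the p-values may then be technical alone.

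Many homeobox genes were silent or nearly so in these cells, with 35 of the 77 under 10 counts over all 6 libraries. Enough counts to be tested were present for 33 of the 77 members and for 12938 of all 38986 symbols. Of the 77 members, 13 had no count in any library, 22 had 1 to 9 counts over all 6 libraries, and 9 more had at least 10 counts but stayed under the filter on low counts. A group total of 0 counts allows up to 0.0476 CPM in the libraries labelled STAT6 and up to 0.039 CPM in those labelled Mock (3 counts over the group, counting error only). The remaining 33 were tested with edgeR's quasi-likelihood test, with p-values adjusted over all 12938 genes tested and a threshold of 0.05. Calls as higher numbered 15, against 35.8% of all genes tested, and calls as lower 9, against 36.8%, while 9 missed the threshold. In all, 72.7% of the members tested were called, against 72.6% of all genes. Changes of at least 2-fold were found for 8 of the 33, or 24.2%, against 15.5% of all genes. The 6 higher genes were Hoxb8, Hoxb9, Meis3, Dlx2, Lhx1 and Lhx9 (10.6% of all genes were as much higher), and the 2 lower ones Dlx6 and Pax5 (4.96% of all genes). Hoxb8 and Lhx1 passed the filter through the libraries labelled STAT6 alone and Pax5 through those labelled Mock alone, so these 3 had to differ. The median log2 fold change of the 33 was 0.20, with Lhx1 at its bound or at its fitted value, against -0.00 over all genes tested. Without Mock replicate 3 it was 0.02, and without the filter on low counts it was 0.18, against 0.12 over all genes then tested. The libraries of the groups did not overlap for 24 of the 33 members, or 72.7%, against 74.6% of all genes. The homeobox genes as a whole thus stood near the background in the share called.

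**Figure D1:**
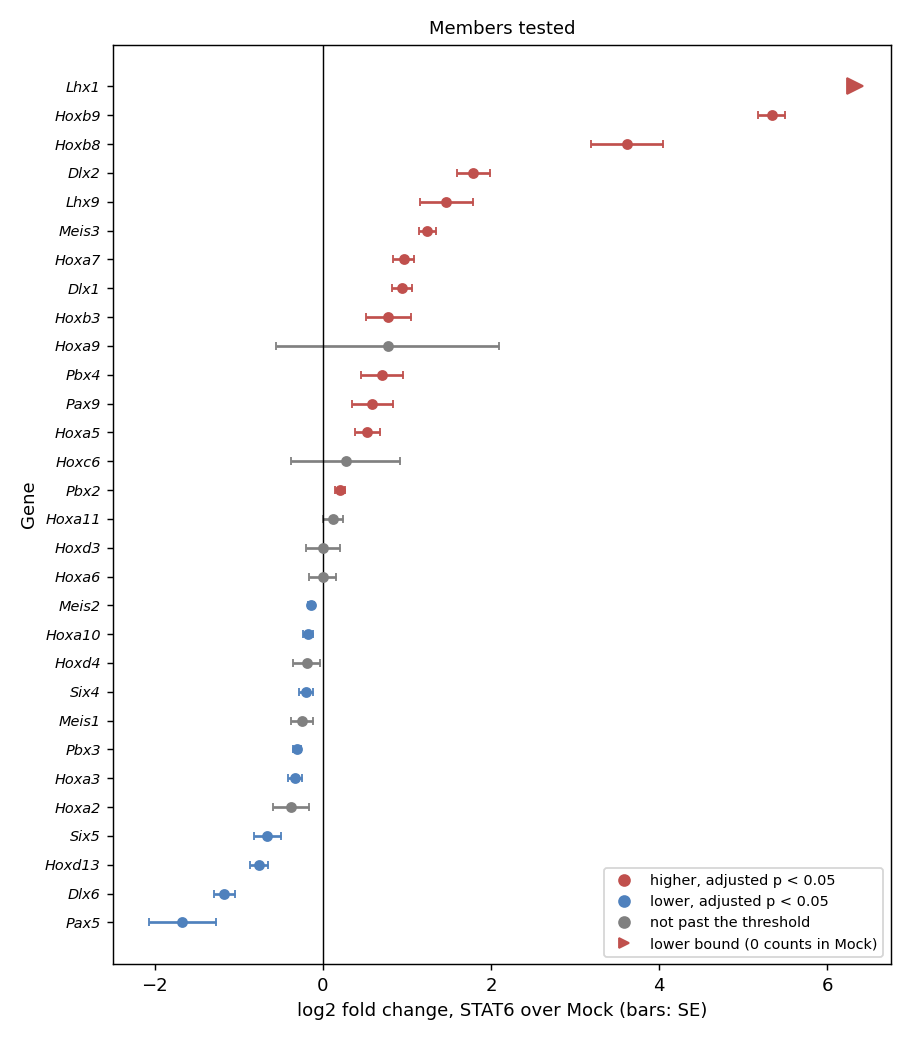
Log2 fold change of 30 of the 33 tested homeobox genes (horizontal axis, libraries labelled STAT6 over libraries labelled Mock; bars are the SE, and the triangle for Lhx1 is a lower bound). Hoxb9, Hoxb8 and Lhx1 stand far to the right, most others lie within 1 unit of 0, and the bars of Hoxa9 and Hoxc6 are the widest.

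The HoxB cluster showed the largest differences among the Hox genes, at its 5′ side. Hoxb9, a gene of trunk patterning, stood at 19.3, 19.3 and 18.9 CPM in the libraries labelled STAT6 and at 0.174, 0.733 and 0.491 CPM in those labelled Mock. The groups did not overlap, and Hoxb9 was 40.4-fold higher (log2 fold change 5.34, SE 0.16, adjusted p = 1.44e-24). In a bulk sample, fewer cells that use a gene and less of its RNA per cell cannot be told apart. Hoxb8, its direct neighbour in the cluster, had 38, 20 and 27 counts in the libraries labelled STAT6 and 2, 4 and 2 counts in those labelled Mock. That is a ratio of 12.96 (95% counting interval 6.29 to 31.0), with a fitted log2 fold change of 3.62 (SE 0.43, adjusted p = 2.78e-09). Hoxb8 passed the filter through the libraries labelled STAT6 alone, so this p-value is no independent support for the difference. Hoxb3, a gene of the hindbrain and pharyngeal region, rose less, at 1.21, 1.34 and 1.37 CPM against 0.651, 0.862 and 0.752 CPM in the libraries labelled Mock (log2 fold change 0.78, SE 0.27, adjusted p = 0.0111).

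The rest of the HoxB cluster was close to silent in both groups. Hoxb7, which lies on the other side of Hoxb8, had no count in any library labelled STAT6 and 2 over those labelled Mock. Hoxb2, Hoxb4 and Hoxb13 had 0 counts in every library, and Hoxb1 had 1 count in all. Hoxb5 had 16 counts against 7 in the libraries labelled Mock, or 2.79 times as many after scaling (95% counting interval 1.085 to 8.015). Hoxb6 had 8 against 9, and these 2 genes were under the filter. Summed over the cluster, HoxB transcripts took 22.5, 22.1 and 22.0 CPM in the libraries labelled STAT6 and 1.13, 1.94 and 1.64 CPM in those labelled Mock. Hoxb9 made up most of this sum in the libraries labelled STAT6.

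**Figure D2:**
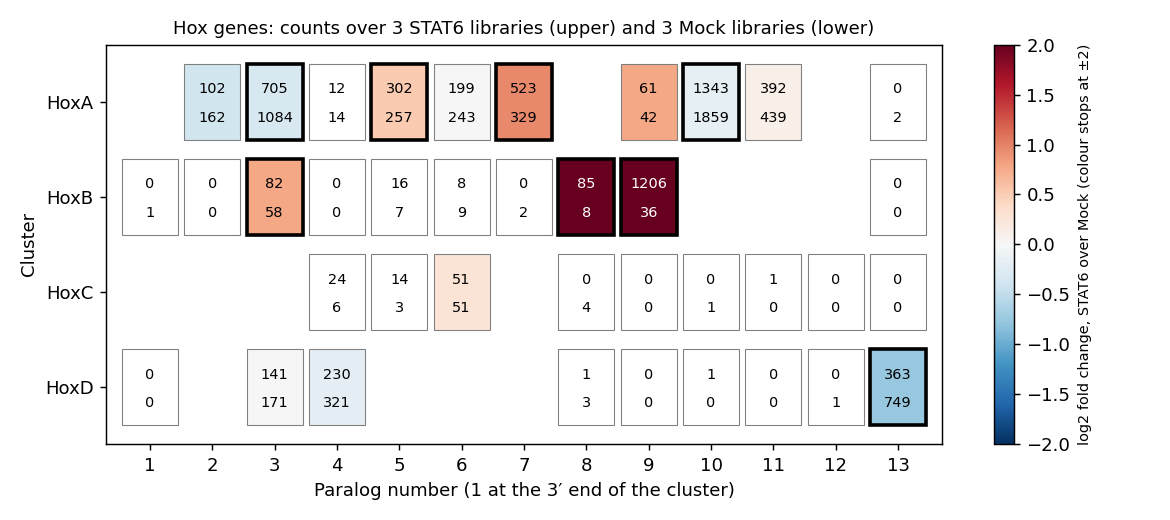
Hox genes by cluster (rows) and paralog number (columns, 1 at the 3′ end), with the summed counts over the 3 libraries labelled STAT6 above those over the 3 labelled Mock in each box. Fill gives the log2 fold change of tested genes, white boxes without fill were not tested, thick frames mark genes past the threshold, and an empty place holds no member or one not shown; Hoxb8 and Hoxb9 are the darkest boxes.

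The HoxA cluster was the most evenly used, with 9 of its 11 genes tested, and it moved in both directions by small amounts. Its summed level was 67.6, 71.2 and 64.7 CPM in the libraries labelled STAT6 and 65.6, 64.4 and 65.0 CPM in those labelled Mock, which overlap. Hoxa7 had the largest call, at 7.60, 9.43 and 8.04 CPM against 4.21, 4.18 and 4.42 CPM in the libraries labelled Mock (log2 fold change 0.96, SE 0.12, adjusted p = 9.48e-09). Hoxa5, needed for lung development, averaged 4.80 ± 0.651 CPM in the libraries labelled STAT6 and 3.30 ± 0.406 CPM in those labelled Mock (SD, n = 3 each; log2 fold change 0.53, adjusted p = 0.00227). Both were higher without overlap between groups.

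On the other side, Hoxa3, which patterns the pharyngeal arches, was lower at 11.2 ± 0.714 CPM against 14.1 ± 0.169 CPM in the libraries labelled Mock (log2 fold change -0.33, adjusted p = 0.000377). The genes called lower, Hoxa3 and Hoxa10, lie on either side of Hoxa5 and Hoxa7 in the order of the cluster. Hoxa2 (log2 fold change -0.38, adjusted p = 0.106), Hoxa6 (-0.00, adjusted p = 0.991) and Hoxa11 (0.12, adjusted p = 0.402) were not past the threshold. Hoxa4 had 12 counts against 14 in the libraries labelled Mock, and Hoxa13 had 0 against 2. Hoxa11os, a transcript antisense to Hoxa11, was at 0.42 (SE 0.22, adjusted p = 0.0849).

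The calls of Hoxa9 and Hoxa10, genes of the posterior body axis and of blood progenitors, changed when a readthrough row was added to each. How reads were divided between these rows is not given, and its part in the calls was not tested. A row of its own, Hoxa10-hoxa9, holds a readthrough transcript that joins these neighbours. Hoxa9 alone was erratic, with 54, 7 and 0 counts in the libraries labelled STAT6 and 12, 22 and 8 counts in those labelled Mock (log2 fold change 0.77, SE 1.33, adjusted p = 0.633). The readthrough row had 128, 155 and 144 counts against 73, 49 and 113 in the libraries labelled Mock and rose (log2 fold change 1.17, SE 0.17, adjusted p = 2.33e-06). Where the library labelled STAT6 replicate 1 had more counts in Hoxa9 it had fewer in the readthrough row. With both rows summed, an alternative chosen after the data were seen, the level was 7.86, 8.35 and 7.06 CPM in the libraries labelled STAT6 and 3.69, 3.06 and 3.96 CPM in those labelled Mock. This sum did not overlap between groups and rose (log2 fold change 1.11, SE 0.13, adjusted p = 2.4e-09). The readthrough row, itself called higher, held 662 counts over all 6 libraries and Hoxa9 held 103. The rise of the sum is thus no separate evidence on Hoxa9.

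Hoxa10 alone stood at 21.7, 21.0 and 21.2 CPM in the libraries labelled STAT6 and at 24.0, 24.2 and 24.3 CPM in those labelled Mock, and was called lower (log2 fold change -0.18, SE 0.06, adjusted p = 0.00737). Summed with the readthrough row it averaged 28.2 ± 0.881 CPM against 27.2 ± 0.847 CPM in the libraries labelled Mock, and the call was lost with the sign turned (log2 fold change 0.05, adjusted p = 0.461).

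**Figure D3:**
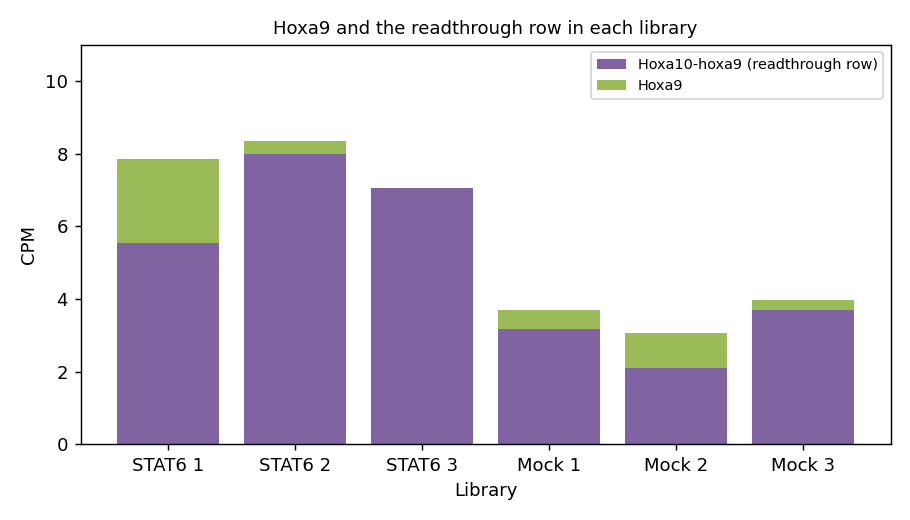
Level in CPM (vertical axis) of Hoxa9 and of the readthrough row Hoxa10-hoxa9, stacked, in each of the 6 libraries. The Hoxa9 part varies from library to library, whereas the summed bars of the libraries labelled STAT6 (7.06 to 8.35 CPM) all stand above those labelled Mock (3.06 to 3.96 CPM).

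In HoxC and HoxD few genes passed the filter on low counts. In HoxD only Hoxd3, Hoxd4 and Hoxd13 were tested, and the 6 other genes held 0 to 4 counts each over all libraries. Hoxd13, the last gene of its cluster and a gene of digit formation, was at 6.22, 4.84 and 6.13 CPM in the libraries labelled STAT6 and at 10.3, 9.79 and 9.32 CPM in those labelled Mock. It was lower without overlap (log2 fold change -0.76, SE 0.11, adjusted p = 1.12e-07), while Hoxd12 beside it had 0 counts against 1. Hoxd3 (-0.00, adjusted p = 0.991) and Hoxd4 (-0.19, adjusted p = 0.305), at the other end, were not past the threshold.

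In HoxC only Hoxc6 was tested, and it was not past the threshold (log2 fold change 0.27, SE 0.65, adjusted p = 0.724). Its counts varied within groups, 13, 31 and 7 in the libraries labelled STAT6 and 18, 24 and 9 in those labelled Mock. Hoxc4 had 24 counts over the group labelled STAT6 and 6 over the group labelled Mock, or 4.88 times as many after scaling (95% counting interval 1.94 to 14.6). Hoxc5 had 14 counts against 3 in the libraries labelled Mock, or 5.69 times as many (1.59 to 30.9). Both stayed under the filter. Without it they were called higher (log2 fold change 2.19 for Hoxc4, adjusted p = 0.0068, and 2.35 for Hoxc5, adjusted p = 0.042), where 39.2% of all genes were called. Since transcripts of Hoxc4, Hoxc5 and Hoxc6 are known to share exons, the split of their reads is uncertain. The genes from Hoxc8 to Hoxc13 held at most 4 counts each.

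The TALE partners of Hox proteins were all measured, and their abundant members hardly moved. Meis2, which is counted at the highest level of all members, stood at 119, 119 and 114 CPM in the libraries labelled STAT6 and at 127, 128.0 and 131 CPM in those labelled Mock. It was lower without overlap, but by 1.10-fold (log2 fold change -0.14, SE 0.04, adjusted p = 0.000883). Meis1, a partner of Hoxa9 in blood progenitors, was not past the threshold (log2 fold change -0.25, SE 0.13, adjusted p = 0.073). Scaled to library totals alone it was called lower (-0.32, adjusted p = 0.02), and likewise without Mock replicate 1 (-0.34, adjusted p = 0.02). Meis3 differed in size and direction: it stood at 12.1, 11.4 and 12.7 CPM in the libraries labelled STAT6 and at 4.82, 5.22 and 5.30 CPM in those labelled Mock. That is 2.36-fold higher without overlap (log2 fold change 1.24, SE 0.10, adjusted p = 2.64e-13).

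The Pbx genes encode the common dimer partners of Hox proteins. Pbx3 was lower, at 27.3, 26.7 and 28.1 CPM against 33.7, 32.8 and 35.1 CPM in the libraries labelled Mock (log2 fold change -0.31, SE 0.05, adjusted p = 6.18e-06). Pbx2 was slightly higher, at 24.7, 27.3 and 26.7 CPM against 21.5, 22.7 and 23.7 CPM in those labelled Mock. Its log2 fold change was 0.20 (SE 0.06, adjusted p = 0.00361), a call lost with library totals alone (0.13, adjusted p = 0.0564). Pbx4 was higher at 1.69 ± 0.340 CPM against 1.02 ± 0.0631 CPM in the libraries labelled Mock (log2 fold change 0.70, adjusted p = 0.0121), a call lost without STAT6 replicate 3 (adjusted p = 0.0601).

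The TALE genes outside the chosen families also split, with 4 higher and 2 lower of 6 tested out of 11 listed. Of all genes tested 35.8% were higher and 36.8% lower. Pknox2, a Meis relative, was lower at 4.11 ± 0.677 CPM against 9.66 ± 0.671 CPM in the libraries labelled Mock (log2 fold change -1.23, adjusted p = 2.82e-11). The transcriptional repressors Tgif1 and Tgif2 went opposite ways, at log2 fold changes of 0.43 and -0.42, and Irx5 was higher at 0.67 (adjusted p = 3.88e-10).

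The Dlx genes, which pattern the forebrain and the branchial arches, stand as neighbouring pairs in the genome. Only Dlx1 and Dlx2 were tested as a pair, and the tested genes went different ways. Dlx2 was at 3.93, 3.30 and 3.92 CPM in the libraries labelled STAT6 and at 1.22, 1.08 and 0.949 CPM in those labelled Mock, 3.47-fold higher (log2 fold change 1.79, SE 0.20, adjusted p = 8.15e-10). Its neighbour Dlx1 was also higher, at 7.77, 7.16 and 8.14 CPM against 3.82, 4.14 and 4.09 CPM in the libraries labelled Mock (log2 fold change 0.94, SE 0.12, adjusted p = 2.2e-08). Both rose without overlap between groups.

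Dlx6 was at 3.80, 3.50 and 4.22 CPM in the libraries labelled STAT6 and at 7.60, 7.97 and 10.2 CPM in those labelled Mock, 2.25-fold lower without overlap (log2 fold change -1.17, SE 0.13, adjusted p = 6.45e-10). Dlx6os1, a noncoding RNA antisense to Dlx6, was lower too (log2 fold change -0.40, SE 0.15, adjusted p = 0.0145), a call lost without STAT6 replicate 1 (-0.26, adjusted p = 0.147). The strand setting of the counting is not given, so reads of Dlx6 and Dlx6os1 cannot be told apart with certainty. Dlx5, the neighbour of Dlx6, had 0 counts against 1 in the libraries labelled Mock, and Dlx3 had 0 everywhere. Dlx4 had 10 counts against 0, at least 4.07-fold higher when Mock is set at the limit of 3 counts given above, and was called higher without the filter (adjusted p = 0.00664). The related genes Msx1, Msx2 and Msx3, which act in limb and craniofacial growth, had at most 1 count each over all libraries.

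The Six-family genes were read together with their protein partners, since they act on their targets through Eya coactivators and Dach corepressors. Six4, a factor of muscle and sensory development, was at 12.8, 12.9 and 12.8 CPM against 14.4, 16.7 and 13.5 CPM in the libraries labelled Mock. Its call as lower (log2 fold change -0.20, SE 0.08, adjusted p = 0.0256) was lost without any of the 3 libraries labelled STAT6 (adjusted p = 0.053 to 0.0559), without Mock replicate 2 (log2 fold change -0.11, adjusted p = 0.225) and with DESeq2 (adjusted p = 0.0814).

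Six5, expressed in eye and muscle, was lower at 2.98 ± 0.473 CPM against 4.72 ± 0.666 CPM in the libraries labelled Mock (log2 fold change -0.66, SE 0.16, adjusted p = 0.000376). Six2, which maintains kidney progenitors, had 0 counts in every library, and Six3 and Six6, genes of the eye field, had 1 and 4 over all. Six4 and Six5 are single members, and no direction of their family is drawn from them. All 4 tested Eya and Dach genes were lower, of 6 listed, where 36.8% of all genes tested were lower. Eya1 fell to 51.6 ± 1.61 CPM in the libraries labelled STAT6, against 261 ± 5.06 CPM in those labelled Mock (log2 fold change -2.34, SE 0.04, adjusted p = 3.86e-34). Dach1 fell to 0.631 ± 0.196 CPM, against 3.86 ± 0.228 CPM in the libraries labelled Mock (-2.63, SE 0.23, adjusted p = 2.17e-12). Eya4 (-0.85) and Eya3 (-0.19) fell as well. The list's median log2 fold change was -1.59, against -0.00 over all genes.

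**Figure D4:**
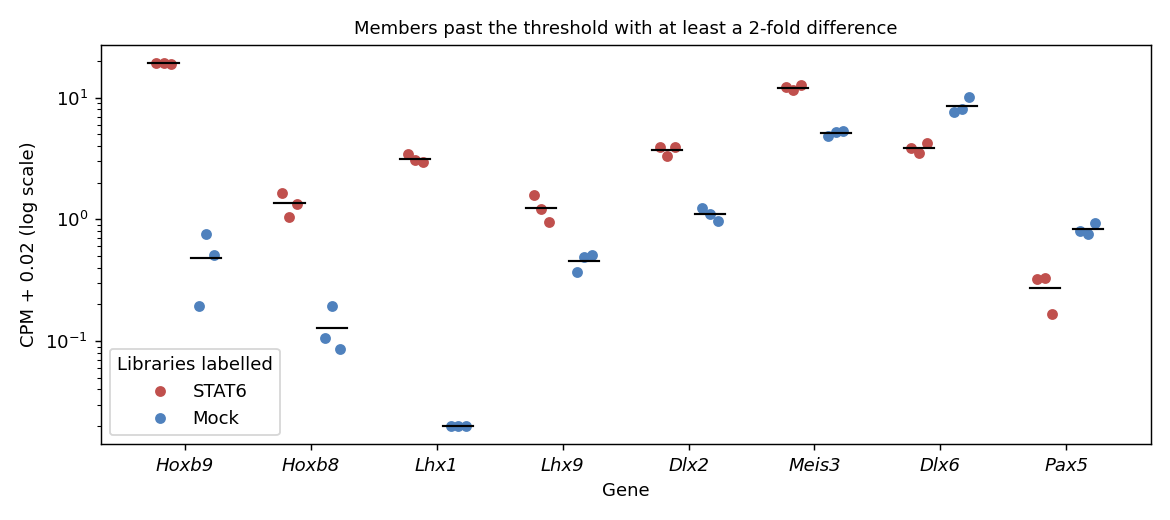
Level of the 8 members past the threshold with at least a 2-fold difference, in each library labelled STAT6 (left of each gene) and Mock (right), as CPM + 0.02 on a log axis; points are libraries and lines are group means. The groups are apart for every gene shown, and the 3 libraries labelled Mock lie at 0 CPM for Lhx1.

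Lhx1 was the member closest to an on and off pattern. This LIM homeodomain factor acts in the head organiser, in motor neurons and in the early kidney. It had 79, 59 and 60 counts in the libraries labelled STAT6, or 3.41, 3.04 and 2.94 CPM, and 0 counts in all 3 labelled Mock. With Mock set at its limit of 3 counts, Lhx1 was at least 80.5-fold higher (adjusted p = 8.37e-16). Lhx1 passed the filter through the libraries labelled STAT6 alone, so this p-value is no independent support for the difference. The 5 kidney epithelium markers summed to 0.173 to 0.361 CPM in the libraries labelled STAT6 and to 0 to 0.0327 CPM in those labelled Mock. Wt1 alone made up most of the sum in the libraries labelled STAT6, with 11 counts there and 0 in those labelled Mock. The part of these markers in the result was not tested. Lhx9, a factor of gonad and limb development, had 36, 23 and 19 counts against 8, 11 and 15 in the libraries labelled Mock, or 1.56, 1.19 and 0.931 CPM against 0.347, 0.474 and 0.491 CPM. It was 2.77-fold higher without overlap (log2 fold change 1.47, SE 0.32, adjusted p = 0.000119). A filter of at least 1 CPM in 3 libraries left it untested.

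Lhx6, a factor of cortical interneurons, stayed under the filter, with 32 counts over the group labelled STAT6 and 11 over the group labelled Mock (3.55 times as many after scaling, 95% counting interval 1.74 to 7.81). Without the filter it was called higher (log2 fold change 1.76, adjusted p = 0.00645). The other 5 Lhx genes held 1 to 11 counts each over all libraries. LIM homeodomain proteins work through the adaptor Ldb1, which was not past the threshold (log2 fold change 0.04, SE 0.04, adjusted p = 0.412). Of 8 tested LIM partners and relatives, out of 14 listed, 1 was higher and 4 were lower, against 35.8% and 36.8% of all genes tested. Lmo1, a LIM-only protein that competes for Ldb1, fell to 0.163 ± 0.133 CPM, against 2.77 ± 0.320 CPM in the libraries labelled Mock (log2 fold change -4.08, SE 0.35, adjusted p = 9.83e-13). Smaller falls were those of Lmo4 (-0.39), Ssbp4 (-0.36) and the LIM homeodomain gene Lmx1b (-0.26).

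Of 8 Pax genes only Pax5 and Pax9 were tested, and each at a low level. Pax5, the factor of B cell identity, had 7, 6 and 3 counts in the libraries labelled STAT6 and 18, 17 and 28 counts in those labelled Mock. That is 0.302, 0.309 and 0.147 CPM against 0.781, 0.733 and 0.916 CPM in the libraries labelled Mock, lower without overlap (log2 fold change -1.67, SE 0.40, adjusted p = 0.000351). Pax5 passed the main filter through the libraries labelled Mock alone, so this p-value is no independent support for the difference. The filter of at least 1 CPM left it untested as well. Pax9, a gene of tooth and thymus formation, was at 1.77, 1.70 and 3.14 CPM in the libraries labelled STAT6 and at 1.87, 1.29 and 1.24 CPM in those labelled Mock, which overlap. Its call as higher (log2 fold change 0.59, SE 0.24, adjusted p = 0.0292) was lost without STAT6 replicate 3 (0.26, adjusted p = 0.388), without Mock replicate 2 (0.52, adjusted p = 0.0645) and without Mock replicate 3 (0.47, adjusted p = 0.131). DESeq2 and limma-voom also lost it (adjusted p = 0.0717 and 0.0575). Pax1, Pax2, Pax4, Pax6, Pax7 and Pax8 held 0 to 4 counts over all libraries.

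All listed Polycomb, Trithorax and MLL, and CTCF and cohesin genes, known to act on Hox clusters, had enough counts to be tested. Of the 19 listed retinoic acid and Cdx genes, 9 had. Polycomb complexes keep Hox genes silent, and of 29 tested Polycomb genes 10 were higher and 17 lower, against 35.8% and 36.8% of all genes tested. The median log2 fold change of the Polycomb genes was -0.18. Suz12, a core subunit of the complex that methylates histone H3, fell to 121 ± 4.07 CPM, against 273 ± 8.71 CPM in the libraries labelled Mock (log2 fold change -1.17, SE 0.03, adjusted p = 6.19e-26). Its accessory subunits Phf19 (1.92) and Aebp2 (0.42) were higher, and Bmi1, of the second Polycomb complex, was lower (-0.54). The methyltransferase gene Ezh2 was lower by less (-0.18, adjusted p = 5.29e-06); it and Eed, at -0.12 (adjusted p = 0.0381), are named outside the rule.

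Trithorax and MLL genes, which keep Hox genes active, were lower in 15 cases and higher in 2, of 19 tested. The median log2 fold change of the list was -0.36. Over all genes tested 36.8% were lower and 35.8% higher, the background for this list and the next ones. Among the Trithorax and MLL genes Psip1 (-0.72), Men1 (-0.72) and Setd1a (-0.62) were lower, and Dot1l, the H3K79 methyltransferase gene, was higher (0.47). CTCF and cohesin, which set chromatin boundaries within Hox clusters, were lower in 7 of 8 genes and higher in 1 (median -0.32), the lower ones including Rad21 (-0.68), Smc3 (-0.60), Smc1a (-0.37) and Stag1 (-0.34). Retinoic acid switches on Hox genes in the embryo. Of 9 tested genes of retinoic acid handling, out of 19 listed with Cdx genes, 7 were higher and 2 lower (median 0.62). Crabp2, a retinoic acid carrier, rose to 20.5 ± 0.281 CPM, against 3.90 ± 1.04 CPM in the libraries labelled Mock (log2 fold change 2.37, SE 0.11, adjusted p = 1.23e-15). The retinaldehyde reductase gene Dhrs3 (1.66) and the receptor gene Rarb (1.08) rose as well, whereas the receptor gene Rxra was lower (-0.43). Cdx1, Cdx2 and Cdx4, homeobox genes upstream of posterior Hox genes, had 0, 1 and 0 counts.

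Of the 63 other homeobox genes in the list 23 were tested, beside 12938 of all 38986 symbols. Among the 23 tested, 9 were higher and 9 lower, against 35.8% and 36.8% of all genes tested. The median log2 fold change of the 23 was 0.01. Zeb1, a zinc finger and homeodomain repressor of epithelial genes, was at 3.49 ± 0.745 CPM in the libraries labelled STAT6 and at 0.351 ± 0.00803 CPM in those labelled Mock (log2 fold change 3.29, SE 0.27, adjusted p = 2.34e-13). Zfhx2 (1.60) and Tshz1 (0.55) were higher, and Adnp was lower (-0.57). Evx2, which lies next to Hoxd13, had 0 counts against 2 in the libraries labelled Mock.

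**Figure D5:**
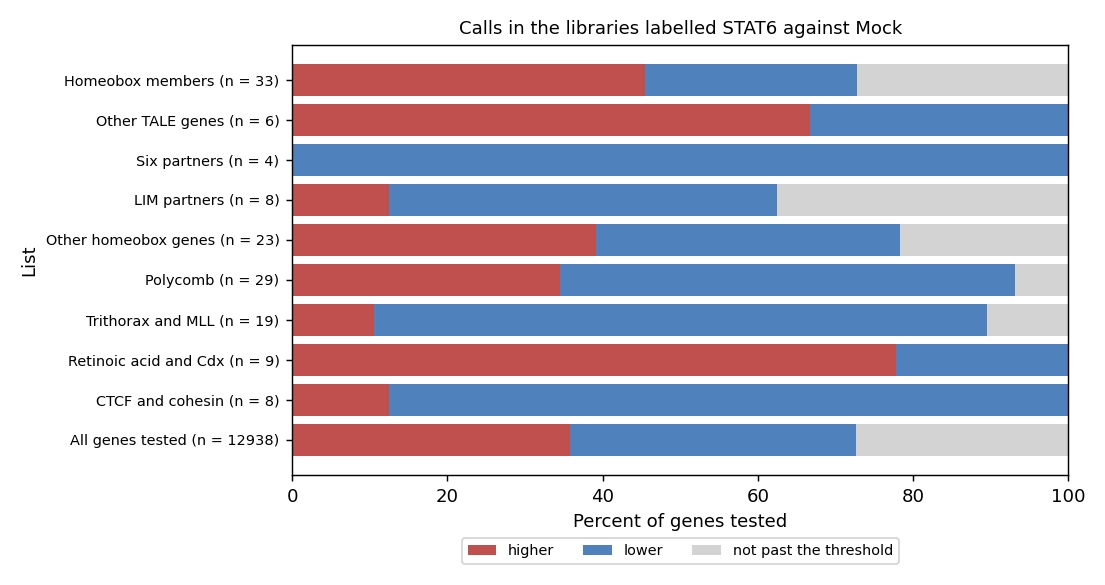
Percent of tested genes called higher, called lower or not past the threshold (horizontal axis) for the homeobox members, for each list of partners and regulators and for all genes tested, with the number tested beside each name. The bar of the homeobox members reaches about as far as that of all genes (72.7% and 72.6% called), and the 4 tested Eya and Dach genes, the Six-family partners, are all called lower.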

How the data were processed

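Per the labels' protocols, the kit was stranded and for mRNA. The authors deposited 1 whole-number count per gene symbol and library. FastQC, STAR, Salmon, edgeR and GRCh37, a human build, appear without versions in the submitters' processing notes. Not given in the sources used here are the read assignment, the strand setting and upstream filters. No mouse annotation was used, so no coordinates or sequences are given.

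The test was edgeR 4.0.16 (R 4.3.3) on the counts as deposited. The filter filterByExpr left 12938 genes with 99.9% of counts. TMM factors lay between 0.968 and 1.03. The model was fitted by glmQLFit (robust) with group alone and tested 2-sided by glmQLFTest; Benjamini-Hochberg adjustment ran over all of these genes. Fold changes are libraries labelled STAT6 over Mock, and the SE is the log2 fold change divided by the root of F. The fit was tested on simulated data with known changes. Members and lists were chosen with earlier results of these data known. Given in full are members called with at least a 2-fold change and those reported of the 6 with the highest mean CPM, and of each list up to 4 genes with the smallest adjusted p; other genes were picked after their values were seen. Single values of 3 members and 1 marker are not reported here, and these genes are in the counts and sums. Alternatives were DESeq2 1.42.0, limma-voom (limma 3.58.1), other scalings and filters, thinning, a replicate block, a 1.5-fold test, a threshold of 0.01 and leaving out each library. Gene neighbours were read from the human assembly GRCh38.p14.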

Additional observations from a re-analysis of the deposited data

How the results depend on the processing

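Of the 24 called members, 17 kept their call and direction under every alternative applied to them, apart from the 2 stricter tests. The 17 alternatives counted include the readthrough sums, which apply to Hoxa9 and Hoxa10 alone. The exceptions were Pbx2, Pbx4, Six4, Pax9 and Hoxa10, given above, and Lhx9 and Pax5. The filter of at least 1 CPM in 3 libraries left Lhx9 and Pax5 untested. Members called numbered 13 to 15 higher and 8 to 10 lower with 1 library left out, and 16 higher and 10 lower with the 7 longer symbols counted. Their median log2 fold change was 0.02 to 0.22 with 1 library left out, lowest without Mock replicate 3. A test for a change beyond 1.5-fold called 2779 of all genes (21.5%), and 9 members higher and 2 lower. Called under it were 1 of the other TALE genes, 1 LIM partner, 3 Polycomb, 2 Trithorax and MLL, 4 retinoic acid, 1 CTCF and cohesin and 6 other homeobox genes. Library totals alone moved the median of all genes to -0.08, and dropping the filter moved it to 0.12. The log2 fold change of Hoxa10 was 0.05 when summed with the readthrough row. The signs of uncalled members turned as follows: Hoxa6 at 0.00 (DESeq2, its size factors, the 1 CPM filter) and -0.07 to 0.11 with 1 library left out; Hoxd3 at 0.00 (1 CPM filter), 0.01 (limma-voom) and -0.10 to 0.11; Hoxa9 at -0.75 (limma-voom) and from -1.62 without STAT6 replicate 1 to 1.34 without STAT6 replicate 3; Hoxc6 from -0.55 without STAT6 replicate 2 to 0.67 without Mock replicate 2; Hotairm1, a noncoding RNA of the HoxA cluster, from -0.31 without STAT6 replicate 1 to 0.11 without STAT6 replicate 2. The cause was not tested. Libraries with the same replicate number had deviations that correlated weakly, at r = 0.03 to 0.10, although 5 of 6 libraries correlated best with their own number. Pairing by number is thus not excluded, and the main fit did not use it. With the number as a replicate block 9422 genes, 15 members higher and 9 lower were called, and the members' median was 0.19. Without the filter on low counts 64 members were tested, with 19 called higher and 9 lower, where 39.2% of all genes were called. Hoxc4, Hoxc5, Dlx4 and Lhx6 were the 4 added calls. The 13 members without a count could not be tested, and no other added member was called. Among those uncalled was Hoxb5, although its counting interval (1.085 to 8.015) lay above equal levels.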
